A study of Mus musculus with 18 samples.

Results

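Imprinted genes are described here as a set of 40 named mouse genes, out of 35773 genes in the count tables. They were chosen by name from genes known to be expressed mainly from 1 parental copy, with earlier results of these data known. The set holds 14 genes that are maternally expressed and 26 that are paternally expressed in mouse tissues, and 28 of them lie in 8 imprinted clusters. RNA-seq was done on 18 libraries, with 3 labelled replicates in each of 6 groups of pluripotent stem cells. ESCs were naive cells kept in 2i/LIF, and EpiLCs were the transient epiblast-like cells made from such cells. EpiSCs were classical primed epiblast stem cells. AFSCs were blastocyst-derived primed cells kept in N2B27 with activin A and bFGF. ASCs, the advanced pluripotent stem cells of the study, came from AFSCs moved into ABCL medium, which holds activin A, BMP4, the Wnt pathway agonist CHIR99021 and LIF. ESC-ASCs were ESCs passaged in the same ABCL medium. The paper converted more than 1 ESC line in this way. It does not say which was sequenced, or whether the sequenced ESCs were the parent line. Rises and falls from ESCs to ESC-ASCs below therefore compare groups and may include differences between lines. The labels call all 18 samples wild type and give 129S2/SvPasCrl as the strain, while the methods describe embryos of 129/sv females and reporter males of mixed MF1, 129/sv and C57BL/6J background. ASC lines began as GFP-positive clones, so each line may stem from few cells, and the sources call the replicates biological without saying whether they were separate lines. The p-values below measure the spread between these libraries, and cell line, medium and time in culture cannot be told apart within a group.

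Genomic imprinting is the expression of a gene from the copy of 1 parent, set by DNA methylation that 1 germ cell lays down at an imprinting control region and that the embryo keeps while most other methylation is erased. Many paternally expressed imprinted genes promote fetal growth and many maternally expressed ones restrain it. Naive ESCs in 2i/LIF are known for low DNA methylation and for loss of imprints in culture. RNA counts of this kind do not separate the parental copies, so a level below is the sum over both, and a change in level does not show a change in imprinting.

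Total counts were 4961934 to 9906473 in 5 of the groups and 17813619 to 18071600 in ESC-ASCs, so depth and group coincide for ESC-ASCs. The library numbered 1 stood apart from the others of its group in ASCs, AFSCs, EpiLCs and ESCs, by a chi-square of counts per degree of freedom of 21.5 to 100.1 against 1.65 to 11.8 between the other libraries of those groups. Results that rest on such a library are given with and without it. Pou5f1, which encodes the core factor OCT4, was at 4853 to 8089 normalized read counts per kb of exon in the means of all groups. The summed level of 5 naive markers was 2689 to 4610 in ESCs, ESC-ASCs and ASCs and at most 119.4 in EpiLCs, AFSCs and EpiSCs, and the 4 postimplantation epiblast markers ran the other way, as the labels have it.

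The promoters shown first belong to paternally expressed genes that, with Peg13, had the largest differences between the 2 routes into ABCL medium described further on. No window for Peg13 was used here. Each window runs from 250 bases before to 50 bases after a RefSeq start in GRCm38.p6, 5′ to 3′ on the strand of the gene. Capitals mark TGCCGC on either strand (read as GCGGCA on the other), the letters that ZFP57, a zinc finger protein that protects imprints, binds when they are methylated. Plagl1 lies at chr10:13090582-13090881 on the plus strand, Mest at chr6:30737800-30738099 on the plus strand, Nap1l5 at chr6:58907077-58907376 on the minus strand and Kcnq1ot1 at chr7:143296498-143296797 on the minus strand.
Plagl1: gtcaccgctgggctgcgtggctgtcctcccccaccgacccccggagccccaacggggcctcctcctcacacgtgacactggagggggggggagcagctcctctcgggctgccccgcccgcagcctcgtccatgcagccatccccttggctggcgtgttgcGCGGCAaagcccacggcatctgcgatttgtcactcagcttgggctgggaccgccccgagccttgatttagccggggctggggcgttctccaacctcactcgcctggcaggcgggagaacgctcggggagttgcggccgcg
Mest: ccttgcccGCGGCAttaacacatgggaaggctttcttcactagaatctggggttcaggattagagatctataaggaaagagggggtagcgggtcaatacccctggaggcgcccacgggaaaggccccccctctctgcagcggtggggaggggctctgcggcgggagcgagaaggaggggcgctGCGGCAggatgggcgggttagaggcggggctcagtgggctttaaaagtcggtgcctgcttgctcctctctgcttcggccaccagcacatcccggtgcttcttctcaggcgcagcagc
Nap1l5: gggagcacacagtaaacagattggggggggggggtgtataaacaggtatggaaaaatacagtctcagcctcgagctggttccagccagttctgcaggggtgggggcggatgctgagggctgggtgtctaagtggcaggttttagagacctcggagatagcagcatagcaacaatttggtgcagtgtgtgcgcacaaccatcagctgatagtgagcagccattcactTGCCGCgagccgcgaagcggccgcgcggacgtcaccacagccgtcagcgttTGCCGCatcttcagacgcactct
Kcnq1ot1: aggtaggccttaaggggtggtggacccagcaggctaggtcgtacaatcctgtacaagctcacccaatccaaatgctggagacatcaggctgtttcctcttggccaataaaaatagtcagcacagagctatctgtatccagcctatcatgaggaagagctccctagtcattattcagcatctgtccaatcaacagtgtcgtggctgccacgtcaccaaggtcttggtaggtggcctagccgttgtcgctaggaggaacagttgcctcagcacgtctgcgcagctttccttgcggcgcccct
The Mest window shown is 1 of 3 for that gene. It holds 2 matches and 17 CpG, as does that of Nap1l5, while the Plagl1 window holds 1 match and 26 CpG. The Kcnq1ot1 window holds no match and 9 CpG, which says only that these letters are not in this window. Of the 40 genes, 33 had a RefSeq window, 50 windows in all, and 11 of those (22.0%) held the motif against 11.6% of all 32851 windows. The median number of CpG was 13.5 in the windows of the imprinted genes and 7 in all windows. By parental class, 4 of 12 maternally expressed and 6 of 21 paternally expressed genes with a window had a match. A match is a description of letters, not a binding site.

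Of the 40 genes, 37 passed the filter of at least 10 counts in at least 3 libraries. Airn, the noncoding RNA that silences Igf2r in tissues, had at most 2 counts in any library, the guanine nucleotide exchange factor gene Rasgrf1 at most 10, and Zim1 at most 16. Levels below are normalized read counts per kb of exon. Fold changes are on the log2 scale with their standard error (SE), from edgeR's quasi-likelihood test over all 18 libraries, with p-values adjusted by Benjamini-Hochberg over 16901 tested genes, and a gene is called at an adjusted p below 0.05. In each of the 8 comparisons made, 39.4% to 66.5% of all tested genes were called in either direction. Among the 37 tested imprinted genes, 36 were called in at least 1 of them. The share of all genes was not counted in this way, so no excess is read from this number. The exception, Ube3a, a ubiquitin ligase imprinted in neurons, had group means from 22.0 to 33.0.

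**Figure D1:**
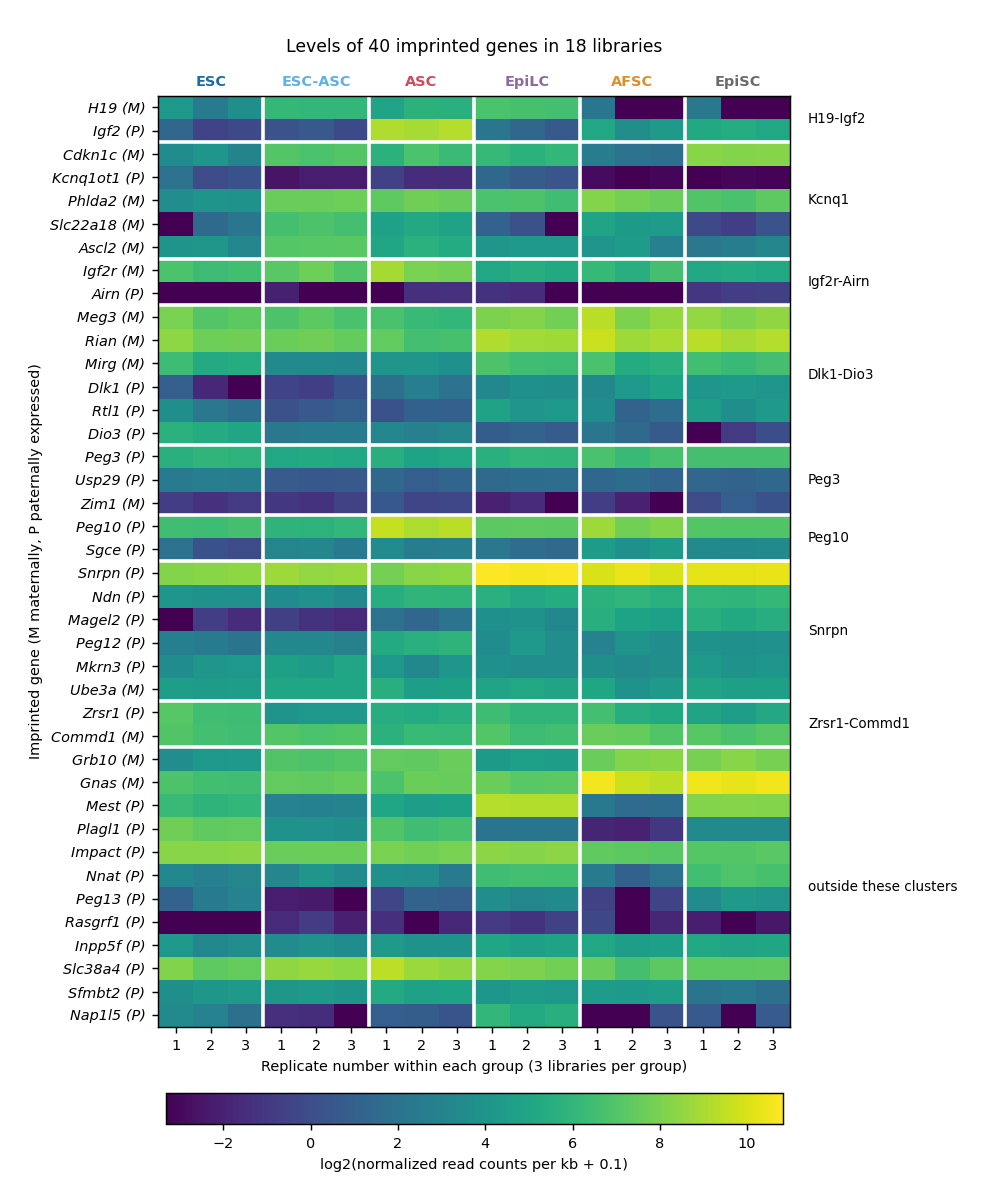
Level of each of the 40 imprinted genes (rows, M maternally and P paternally expressed, grouped by cluster) in each of the 18 libraries (columns, by group and replicate number), as log2(normalized read counts per kb + 0.1) on the colour scale. Igf2 and Peg10 are brightest in ASCs, Snrpn in EpiLCs, AFSCs and EpiSCs, and Airn and Rasgrf1 are dark in all groups.

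The H19-Igf2 cluster on chromosome 7 set ASCs apart. Igf2 encodes the insulin-like growth factor II, which drives fetal growth. Its level in ASCs was 551, 498 and 617. In ESCs it was 2.41, 0.6101 and 0.7797, and in ESC-ASCs 1.15, 1.45 and 0.791. EpiLCs were at 4.64, 2.47 and 1.496, AFSCs at 35.1, 12.7 and 20.3 and EpiSCs at 38.75, 43.3 and 36.2. All 3 ASC libraries were far above every other library, and the primed AFSCs and EpiSCs were above ESCs, ESC-ASCs and EpiLCs without overlap. Igf2 was higher in ASCs than in ESCs (log2 fold change 8.94 ± 0.42 SE, edgeR adjusted p = 1.3e-11), a difference of 9.57 without ESC replicate 1, and higher in ASCs than in the parental AFSCs (log2 fold change 4.60 ± 0.29 SE, edgeR adjusted p = 1.58e-10). ESC-ASCs, in the same medium as ASCs, had less Igf2 than ASCs (log2 fold change -8.90 ± 0.38 SE, edgeR adjusted p = 6.21e-12) and did not differ detectably from ESCs (log2 fold change 0.03 ± 0.64 SE, edgeR adjusted p = 0.97).

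H19, the maternally expressed noncoding RNA next to Igf2, did not follow it. Its level was 112.5, 104 and 97.9 in EpiLCs, 68.2, 64.7 and 66.1 in ESC-ASCs, 30.02, 53.4 and 49.5 in ASCs and 18.3, 5.397 and 13.2 in ESCs. In AFSCs and EpiSCs the library numbered 1 held 8 and 9 counts, and the other 4 libraries held 0. H19 was thus highest in EpiLCs and present in all ESC-ASC and ASC libraries, without overlap with ESCs or EpiLCs. H19 rose in EpiLCs over ESCs (log2 fold change 3.16 ± 0.50 SE, edgeR adjusted p = 3.26e-05) and in ESC-ASCs over ESCs (log2 fold change 2.49 ± 0.50 SE, edgeR adjusted p = 0.000329). Against AFSCs it was higher in ASCs (log2 fold change 4.98 ± 0.72 SE, edgeR adjusted p = 9.97e-06). Without AFSC replicate 1 that fitted difference became 9.85, a size that depends on the prior count of the fit because the other AFSC libraries held 0 counts, and is no bound, and without AFSC replicate 3 it was 4.33. The same holds for EpiSC replicate 1, without which the difference between EpiSCs and ESCs went from -3.11 to -7.95, while without EpiSC replicate 2 or 3 it was -2.43 or -2.48. Igf2r encodes the receptor that takes IGF2 up for breakdown, and its level was 474, 256 and 236 in ASCs against 113, 84.2 and 92.3 in ESCs and 33.65, 41.65 and 34.99 in EpiSCs. It was higher in ASCs than in EpiSCs (log2 fold change 3.12 ± 0.29 SE, edgeR adjusted p = 2.57e-08) and than in AFSCs (log2 fold change 2.12 ± 0.28 SE, edgeR adjusted p = 2.58e-06).

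Because fibroblasts and trophoblast express Igf2, their markers are given beside it. The summed level of 6 fibroblast markers was 75.3 to 116.8 in ASCs and 50.4 to 60.7 in ESC-ASCs. It was 36.2 to 75.2 in ESCs, 46.2 to 56.9 in EpiLCs, 31.6 to 51.4 in AFSCs and 17.1 to 19.9 in EpiSCs. Most of it in ASCs was Col1a1 and Thy1 (means 56.4 and 34.6), while Col3a1, Postn and Lum had means of 0.586, 0.247 and 0.173 there. In ESC-ASCs against ASCs, 3 of 4 tested fibroblast markers were lower and 1, Thy1, was higher (mean 53.4, log2 fold change 0.63). Col1a1 was at 1.16 in ESC-ASCs (log2 fold change -5.57, edgeR adjusted p = 2.5e-08). The summed level of 8 trophoblast markers was 754 to 929 in ASCs, 403 to 417 in ESCs and 1960 to 2568 in AFSCs. Krt8 and Krt18 made up most of it in ASCs (means 305 and 258), against 29.4 and 13.8 in ESCs. Cdx2 and Tfap2c were called lower in ASCs than in ESCs (log2 fold changes -0.93 and -0.53 in edgeR). Hand1, which the paper counts among primitive streak and mesoderm genes, was at 38.9 in ASCs against at most 1.57 elsewhere. Elf5 was at 0.120 and Prl3d1 at 0 in ASCs. The part of these cells in the Igf2 level was not tested, and in bulk RNA more cells of a type and more RNA per cell cannot be told apart.

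**Figure D2:**
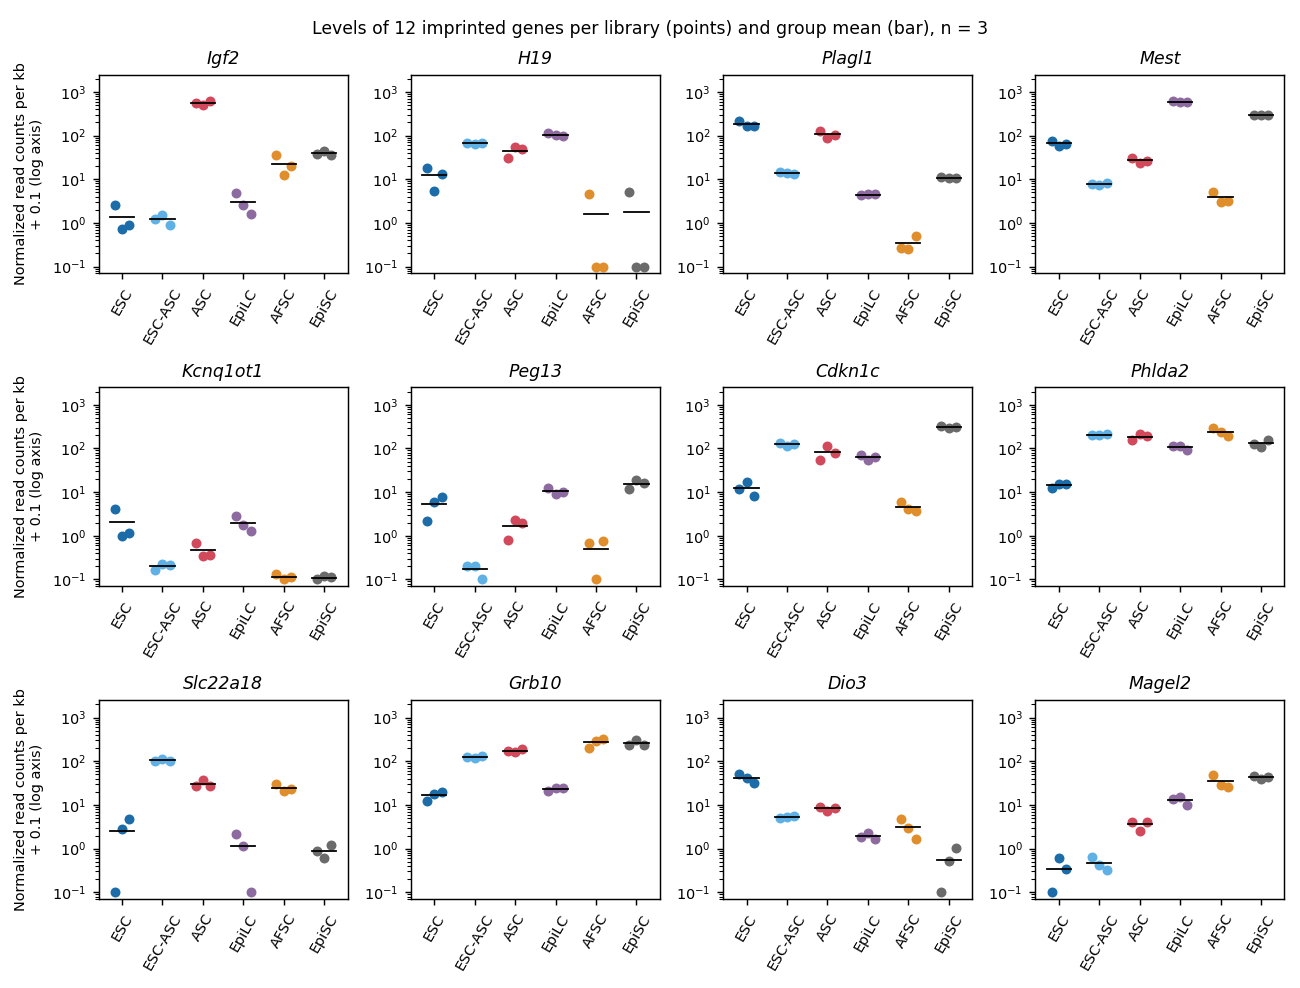
Levels of 12 imprinted genes in each library (points) and the group mean (bar), in normalized read counts per kb + 0.1 on a log axis, for ESC, ESC-ASC, ASC, EpiLC, AFSC and EpiSC (n = 3 each). Igf2 is near 555 in ASCs and near 1 in ESCs and ESC-ASCs, and Plagl1 spans 184 in ESCs to 0.239 in AFSCs.

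The Kcnq1 cluster, also on chromosome 7, holds maternally expressed genes that act mainly in the placenta and that the paternal noncoding RNA Kcnq1ot1 silences in cis. Kcnq1ot1 was at 3.94, 0.869 and 1.08 in ESCs and 2.67, 1.698 and 1.22 in EpiLCs. It was at 0.575, 0.246 and 0.2599 in ASCs and 0.0659, 0.122 and 0.119 in ESC-ASCs, and AFSCs and EpiSCs held 3 counts each over all 3 libraries. Every ESC and EpiLC library was above every library of the other 4 groups. In ESC-ASCs Kcnq1ot1 was lower than in ESCs (log2 fold change -4.19 ± 0.54 SE, edgeR adjusted p = 2.71e-06), a difference of -3.26 without ESC replicate 1. ESCs held 314 counts against the 3 of EpiSCs, a ratio of 136 after scaling for depth with a 95% counting interval of 46.2 to 664, which covers counting error only. Of the 314 counts, 169 were in ESC replicate 1, and the fitted difference of -7.14 between EpiSCs and ESCs was -6.21 without that library and -7.91 without EpiSC replicate 2.

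The 4 maternally expressed neighbours of Kcnq1ot1 were each higher in ESC-ASCs and in ASCs than in ESCs. Phlda2, which restrains placental growth, was at 12.3, 15.6 and 14.9 in ESCs, 202, 199.6 and 211 in ESC-ASCs and 159, 215 and 188 in ASCs. Its means were 107 in EpiLCs, 241 in AFSCs and 131 in EpiSCs, and every library of those groups was above all ESC libraries. The rise in ESC-ASCs over ESCs was 3.79 ± 0.23 (log2 fold change with SE, edgeR adjusted p = 1.33e-10). Slc22a18, a transporter gene, was at 0, 2.74 and 4.596 in ESCs, 101, 115 and 102 in ESC-ASCs, 26.7, 37.3 and 27.8 in ASCs and 30.1, 20.4 and 22.6 in AFSCs, and its group means were 1.03 in EpiLCs and 0.805 in EpiSCs. Its difference between ESC-ASCs and ESCs was 5.18 ± 0.38 (log2 fold change with SE, edgeR adjusted p = 1.33e-09), and 5.89 without ESC replicate 3. Ascl2, a transcription factor needed for trophoblast, was highest in ESC-ASCs, at 135.5, 141 and 146, against 31.9, 53.1 and 41.2 in ASCs and 15.8, 17.9 and 8.935 in ESCs. It was higher in ESC-ASCs than in ASCs (log2 fold change 1.75 ± 0.25 SE, edgeR adjusted p = 1.39e-05). Of the 8 trophoblast markers, 6 were tested in ESC-ASCs against ESCs, with Krt18 (log2 fold change 3.10) and Krt8 (1.44) higher and Cdx2 (-7.85) and Tfap2c (-0.91) lower. Their summed level was 321 to 363 in ESC-ASCs against 403 to 417 in ESCs, with Elf5 and Prl3d1 at 0 in ESC-ASCs, and their part in these genes was not tested.

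Cdkn1c encodes p57, an inhibitor of cyclin-dependent kinases, and shares 30.7% of its exonic bases with a gene on the other strand, so that the unstranded counting may have given it some foreign fragments. Its level was 319.9, 294 and 308 in EpiSCs and 5.94, 3.97 and 3.56 in AFSCs. ESCs were at 11.6, 17.1 and 8.21, ESC-ASCs at 133, 113 and 129 and ASCs at 54.5, 112.5 and 79.6. The 2 primed groups thus lay at opposite ends, with AFSCs below every other library and EpiSCs above every other. The difference between AFSCs and EpiSCs was -6.09 ± 0.30 (log2 fold change with SE, edgeR adjusted p = 1.36e-11), and Cdkn1c was higher in ASCs than in AFSCs (log2 fold change 4.18 ± 0.31 SE, edgeR adjusted p = 1.01e-09).

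The Dlk1-Dio3 cluster on chromosome 12 expresses the noncoding RNAs Meg3, Rian and Mirg from the maternal copy and Dlk1, Rtl1 and Dio3 from the paternal copy. Meg3 was at 108, 77.7 and 65.85 in ASCs, 247, 129 and 153 in ESCs and 657, 261 and 384 in AFSCs. Rian ran alongside, at 169.5, 96.7 and 103 in ASCs and 827, 449 and 517 in AFSCs. Mirg, at the far end of the noncoding stretch, was at 10.3, 10.5 and 9.445 in ESC-ASCs and 16.6, 16.5 and 13.5 in ASCs against 93.6, 74.6 and 101 in EpiSCs. All 3 thus had their lowest 2 group means in the groups in ABCL medium, with some overlap with ESCs for Meg3 and Rian, and were lower in ASCs than in AFSCs (log2 fold change -2.40 ± 0.30 SE, edgeR adjusted p = 1.13e-06 for Meg3). AFSC replicate 1 was the highest AFSC library for each of them.

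Of the protein genes of this cluster, Dlk1, a transmembrane protein of the Notch ligand family, was near 0 in ESCs (1.74, 0.206 and 0) and ESC-ASCs (0.6255, 0.518 and 1.07). It was at 3.62, 6.425 and 3.88 in ASCs and 16.9, 19.8 and 17.04 in EpiSCs. ESCs held 6 counts of Dlk1 in all, 5 of them in replicate 1, and the difference between EpiSCs and ESCs was 5.16 ± 0.60 (log2 fold change with SE, edgeR adjusted p = 4.15e-07), or 7.20 without that library and 4.45 without ESC replicate 3. Dio3, which inactivates thyroid hormone, was highest in ESCs instead. It was at 52.4, 41.3 and 32.4 in ESCs, 9.04, 7.16 and 8.645 in ASCs and 4.98, 5.29 and 5.45 in ESC-ASCs, and its means were 1.82 in EpiLCs, 3.01 in AFSCs and 0.458 in EpiSCs. Every ESC library was above all others, and the change from ESCs to ESC-ASCs was -2.98 ± 0.27 (log2 fold change with SE, edgeR adjusted p = 1.98e-08). Rtl1, derived from a retrotransposon, was at 27.99, 16.7 and 18.5 in EpiLCs and 23.95, 12.9 and 19.97 in EpiSCs, against 1.02, 1.96 and 1.898 in ASCs and 13.3, 4.76 and 3.33 in ESCs. It was lower in ASCs than in ESCs (log2 fold change -2.03 ± 0.62 SE, edgeR adjusted p = 0.0112), a call that was lost without ASC replicate 1 (adjusted p = 0.0553 in edgeR) or ESC replicate 1 (adjusted p = 0.0852). Its difference between ESC-ASCs and ESCs was -2.19, and -1.50 without ESC replicate 1.

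The Snrpn cluster on chromosome 7 holds 5 paternally expressed members and Ube3a. Snrpn, a splicing protein gene that shares 27.3% of its exonic bases with Snurf and a predicted gene, was at 1805, 1604 and 1718 in EpiLCs, 1216, 1219 and 1303 in EpiSCs and 1014, 1336 and 1048 in AFSCs. ESCs were at 295.5, 319 and 337, ESC-ASCs at 424, 374.5 and 394 and ASCs at 237, 321 and 336. The 3 groups with naive markers thus lay below the other 3 without overlap, and the rise in EpiLCs over ESCs was 2.43 ± 0.15 (log2 fold change with SE, edgeR adjusted p = 5.46e-11). Magel2, a MAGE family gene, went from 0, 0.503 and 0.241 in ESCs to 13.5, 15.5 and 9.71 in EpiLCs and 47.04, 38.4 and 44.3 in EpiSCs. ESCs held 3 counts of it against 583 in EpiSCs, a ratio of 149 with a 95% counting interval of 50.9 to 726. The fitted difference was 7.11 and, without ESC replicate 2, 7.92. ASCs were between these ends at 3.96, 2.47 and 4.03, and ESC-ASCs were at 0.546, 0.3165 and 0.217. Ndn, the second MAGE gene of the cluster, separated the 2 groups in ABCL medium, at 44.7, 61.3 and 57.6 in ASCs and 11.5, 14.15 and 10.6 in ESC-ASCs (log2 fold change -2.16 ± 0.17 SE, edgeR adjusted p = 9.84e-09). Peg12, a relative of the GSK3-binding FRAT genes, was highest in ASCs at 40.05, 50.7 and 59.4, against 6.71, 5.73 and 4.23 in ESCs and 7.65, 15.8 and 12.2 in AFSCs. Its difference between ASCs and ESCs was 3.18 ± 0.29 (log2 fold change with SE, edgeR adjusted p = 6.83e-08). Mkrn3 was called in 2 of 8 comparisons, with means from 12.1 to 27.1.

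In the Peg10 cluster on chromosome 6, Peg10, a retrotransposon-derived gene needed for the placenta, was at 775, 535 and 645 in ASCs. It was at 432, 224 and 285 in AFSCs, 88.6, 87.5 and 98.55 in ESCs and 59.45, 55.8 and 66.6 in ESC-ASCs. All ASC libraries were above every other library and all ESC-ASC libraries below, a difference of -3.42 ± 0.20 (log2 fold change with SE, edgeR adjusted p = 2.2e-10). The trophoblast marker sum given with Igf2 was also higher in ASCs than in ESC-ASCs, and its part in Peg10 was not tested. Sgce, the sarcoglycan gene beside Peg10, was highest in AFSCs at 22.7, 13.5 and 19.7 and lowest in ESCs at 3.896, 1.097 and 0.841, of which replicate 1 was the highest. Sgce rose in ESC-ASCs over ESCs (log2 fold change 2.17 ± 0.40 SE, edgeR adjusted p = 0.000135), by 2.97 without ESC replicate 1. In the Peg3 cluster, the zinc finger gene Peg3 had means of 36.6 in ESC-ASCs to 100.3 in EpiSCs. Usp29, a deubiquitinase gene that starts beside it on the other strand and shares 14.8% of its exonic bases, mostly with Zim3, fell from 5.45, 6.44 and 6.17 in ESCs to 1.57, 1.38 and 1.42 in ESC-ASCs (log2 fold change -2.07 ± 0.18 SE, edgeR adjusted p = 1.62e-08). Zrsr1, a splicing factor relative that lies within Commd1, went from 143, 90.8 and 87.01 in ESCs to 15.9, 18.6 and 20.1 in ESC-ASCs (log2 fold change -2.55 ± 0.29 SE, edgeR adjusted p = 3.69e-07), whereas the means of Commd1 were 103.9 and 123.1.

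Among the 12 genes outside these clusters, 5 paternally expressed ones are described first. Plagl1, a zinc finger regulator of growth, was at 219.6, 164 and 169 in ESCs and 127, 88.85 and 103 in ASCs. It was at 14.5, 13.9 and 13.25 in ESC-ASCs and 10.9, 10.6 and 10.5 in EpiSCs, and AFSCs held 5 counts over 3 libraries. The level thus differed between the 2 groups in ABCL medium (log2 fold change -2.93 ± 0.15 SE, edgeR adjusted p = 4.81e-11) and between AFSCs and the ASCs derived from them (log2 fold change 8.63 ± 0.26 SE, edgeR adjusted p = 6.42e-15), the second being 9.23 without AFSC replicate 3. Mest, a gene of the hydrolase fold family that shares 23.1% of its exonic bases with Copg2 on the other strand, was at 614.5, 578 and 579 in EpiLCs and 295, 303 and 294 in EpiSCs. It was at 5.12, 2.93 and 3.15 in AFSCs, 7.69, 7.43 and 8.28 in ESC-ASCs, 31.2, 23.2 and 26.1 in ASCs and 74.4, 57.5 and 65.6 in ESCs. No group overlapped another for Mest, and the difference of AFSCs from EpiSCs was -6.32 ± 0.18 (log2 fold change with SE, edgeR adjusted p = 2.02e-14).

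Peg13, a noncoding RNA, and Nap1l5, a nucleosome assembly relative, were expressed at lower levels. Peg13 was at 11.4, 19.03 and 16.4 in EpiSCs and 2.08, 5.91 and 7.555 in ESCs, against 0.685, 2.198 and 1.86 in ASCs, 0.57, 0 and 0.658 in AFSCs and 2 counts over the 3 ESC-ASC libraries. The 61 counts of ESCs against those 2 gave a ratio of 81.0 with a 95% counting interval of 21.5 to 684. Nap1l5 was at 65.8, 40.3 and 45.85 in EpiLCs and 10.7, 7.57 and 3.63 in ESCs, with 8 counts in ASCs and 2 in ESC-ASCs. ESCs held 28 counts, a ratio to ESC-ASCs of 37.2 with an interval of 9.38 to 322. The call of Nap1l5 between ESC-ASCs and ASCs, at these few counts, was lost without any 1 of ASC replicate 1, ASC replicate 2 and ESC-ASC replicate 3 (adjusted p of 0.0632 to 0.0773 in edgeR). Nnat, a proteolipid gene known from neurons, was at 92.55, 120 and 104 in EpiSCs and 89.1, 98.2 and 93.03 in EpiLCs, and at 5.89, 1.899 and 3.965 in AFSCs. AFSCs were thus below EpiSCs for Plagl1, Mest, Peg13, Nnat and Cdkn1c without overlap, by log2 fold changes from -6.32 to -4.75. Without AFSC replicate 3, Plagl1 went from -5.33 to -5.93 and Peg13 from -5.17 to -5.76.

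A pair of growth regulators of the maternal class was high in AFSCs and EpiSCs. Grb10, an adaptor that restrains insulin signalling and is paternally expressed in neurons, was at 12.1, 18.2 and 19.5 in ESCs and 20.5, 24.9 and 24.1 in EpiLCs. It was at 125, 116 and 129.9 in ESC-ASCs, 174, 164 and 189 in ASCs, 203, 297 and 316 in AFSCs and 237.5, 315 and 237 in EpiSCs. ESCs and EpiLCs were below all other libraries, and the rise in ESC-ASCs over ESCs was 2.86 ± 0.20 (log2 fold change with SE, edgeR adjusted p = 6.52e-10). Gnas, which encodes a stimulatory G protein subunit and also makes transcripts of the paternal copy, shares 22% of its exonic bases with genes on the other strand. It was at 1487, 1247 and 1476 in EpiSCs and 1496, 832.5 and 677 in AFSCs against 115.5, 92.2 and 89.55 in ESCs. The change from AFSCs to ASCs was -2.63 ± 0.26 (log2 fold change with SE, edgeR adjusted p = 5.17e-08), or -1.98 with the libraries numbered 1 of ASCs, AFSCs, EpiLCs and ESCs left out. Of the other 4 tested genes outside the clusters, Sfmbt2, a polycomb group gene, was lowest in EpiSCs at 4.17, 5.12 and 3.66 (log2 fold change 2.34 ± 0.21 SE, edgeR adjusted p = 6.02e-08 for AFSCs against EpiSCs). Impact, Inpp5f and Slc38a4 had no call beyond 2 on the log2 scale.

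The comparisons, counted over the 37 tested genes, share groups with each other, mainly ESCs and ASCs, and are therefore given side by side. ASCs against ESCs, the main pair of the study, had 17 genes higher (26.4% of all tested genes were higher) and 15 lower (23.9%). Their median log2 fold change was 0.33, against 0.02 over all tested genes. EpiLCs against ESCs had 19 higher (28.7%) and 4 lower (26.6%). Blocking on replicate number added Grb10 and Meg3 to the higher genes and Zrsr1 to the lower, for 21 and 5. EpiSCs against ESCs had 21 higher (29.2%) and 11 lower (32.0%). In both, Snrpn, Ndn, Magel2 and Peg12 were among the genes that rose. The 2 primed groups, AFSCs against EpiSCs, differed in 9 higher (21.6%) and 7 lower (17.8%), and the second number was 11 without AFSC replicate 1 and 13 with the libraries numbered 1 of 4 groups left out, an alternative chosen after seeing the data. ASCs against AFSCs had 16 higher (32.8%) and 13 lower (31.2%), and ASCs against EpiSCs 14 higher (35.9%) and 16 lower (30.7%).

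By parental class, ASCs against ESCs had 8 of 13 maternally expressed genes higher and 4 lower, and 9 of 24 paternally expressed genes higher and 11 lower. The same counts were further apart in the ESC-ASC comparisons. Against ESCs, ESC-ASCs had 8 of 13 maternally expressed genes higher and 1 lower, and 3 of 24 paternally expressed genes higher and 12 lower, where 30.6% of all tested genes were higher and 29.6% lower. The median log2 fold change was 0.80 in the maternal class and -0.48 in the paternal class, against 0.03 over all tested genes. The paternal genes that fell by more than 2 on the log2 scale were Peg13, Nap1l5, Kcnq1ot1, Plagl1, Mest, Dio3, Zrsr1, Rtl1 and Usp29. The maternal genes that rose by more than 2 were Slc22a18, Phlda2, Cdkn1c, Ascl2, Grb10 and H19. Against the balance of each class, the maternal Mirg fell by 2.44 (edgeR adjusted p = 2.14e-06) and the paternal Sgce rose by 2.17 (edgeR adjusted p = 0.000135). Leaving out 1 library at a time gave 7 to 8 maternal genes higher and 12 paternal genes lower, and leaving out the libraries numbered 1 of 4 groups gave 10 and 12, with 6 paternal genes then higher.

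Against ASCs, ESC-ASCs had 5 maternal genes higher and 2 lower and 2 paternal genes higher and 15 lower, beside 23.0% and 27.7% of all tested genes. With 1 library left out at a time, 3 to 5 maternal genes were higher and 11 to 14 paternal genes lower. In all, 7 genes were higher, a number that was 4 without ESC-ASC replicate 1, and 17 were lower. Of the 26 paternal genes, 10 had their lowest group mean in ESC-ASCs, against 19.9% of all tested genes, and 1 of 14 maternal genes did. By the same count, 7 paternal genes had their highest mean in EpiSCs (17.8% of all tested genes did) and 6 in ESCs (17.5%). A further 5 each had it in ASCs (14.4%) and EpiLCs (14.2%), 2 in AFSCs (15.1%) and 1, Mkrn3, in ESC-ASCs (21.0%). These counts include the untested Airn, highest in EpiSCs, and Rasgrf1, highest in EpiLCs, while the percents cover tested genes only. The ESC-ASC libraries were the deepest of the series, and the part of depth or of the cell line in these counts was not tested.

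**Figure D3:**
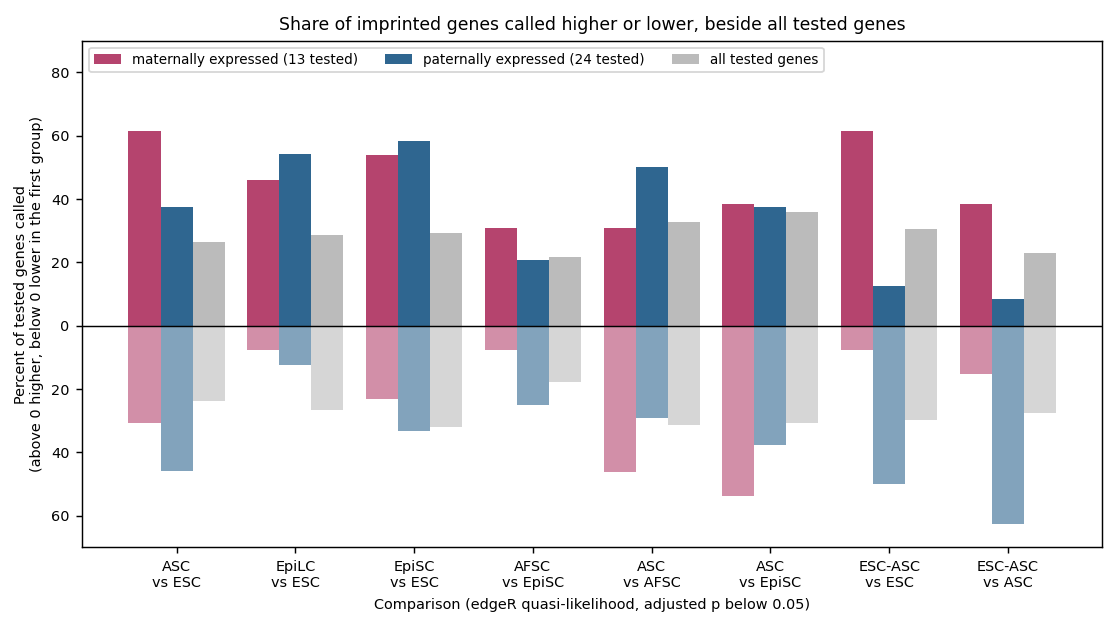
Percent of the 13 tested maternally expressed genes, the 24 tested paternally expressed genes and all 16901 tested genes called higher (above 0) or lower (below 0) in the first group of each comparison, at an edgeR adjusted p below 0.05. In ESC-ASCs against ESCs the maternal bars are mostly above 0 (8 higher, 1 lower) and the paternal bars mostly below (3 higher, 12 lower).

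Entry into ABCL medium could be compared between its 2 origins, since ASCs against AFSCs and ESC-ASCs against ESCs share no library. The paper does not say that the sequenced ESCs were the parent line of the ESC-ASCs. The difference of the 2 changes was tested in the same fit. It was positive, that is higher for the AFSC origin, for 15 genes (30.8% of all tested genes) and negative for 13 (27.7%), and 58.5% of all tested genes passed in either direction. Of the 15, 13 were paternal, and of the 13, 8 were maternal, where 24 of the 37 tested genes were paternal and 13 maternal. Members of 1 cluster, such as Slc22a18, Phlda2 and Ascl2, count as separate genes here. The calls of H19, Dlk1 and Slc38a4 were lost without some single libraries, 9, 3 and 6 of 12 in turn, and that of Igf2r with the libraries numbered 1 of 4 groups left out. For Plagl1, Kcnq1ot1, Peg13, Mest, Dio3, Peg10 and Impact the level rose from AFSCs to ASCs and fell from ESCs to ESC-ASCs, each past the test. Plagl1 changed by 8.63 on the first path and -3.74 on the second, a difference of 12.37 ± 0.30 (SE, adjusted p = 5.46e-16 in edgeR). Grb10, Gnas and Sgce fell from AFSCs to ASCs and rose from ESCs to ESC-ASCs, each past the test. Between ESC-ASCs and ASCs, however, Gnas and Sgce were not called (log2 fold changes 0.09 and -0.05, edgeR adjusted p = 0.783 and 0.912). Phlda2 was not called there either (0.13, edgeR adjusted p = 0.537), while Grb10 was lower (-0.50, edgeR adjusted p = 0.0235). For Gnas, Sgce and Phlda2 the unlike changes thus go with unlike levels in AFSCs and ESCs. Cdkn1c rose on both paths, by 4.18 and 3.32, and the difference of 0.86 ± 0.44 was not past the test (adjusted p = 0.101 in edgeR). Mirg fell on both paths, by 2.13 and 2.44 on the log2 scale. Kcnq1ot1, Plagl1 and Peg13 had 3, 5 and 5 counts in AFSCs, so their change on the first path starts near the detection limit.

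**Figure D4:**
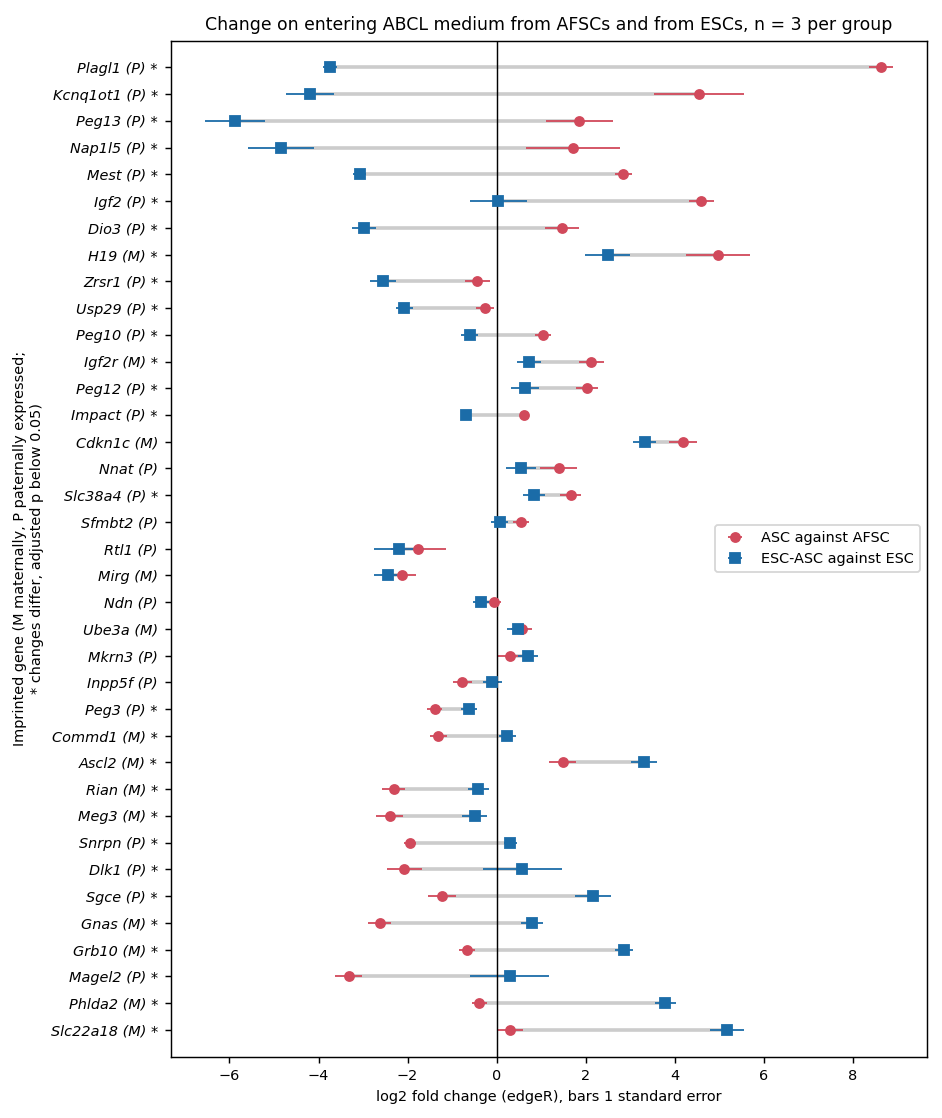
Log2 fold change of each of the 37 tested imprinted genes in ASCs against AFSCs (circles) and in ESC-ASCs against ESCs (squares), with bars of 1 standard error, n = 3 per group, ordered by the difference of the 2. Plagl1 has the widest gap, from 8.63 to -3.74, and an asterisk marks the 28 genes with an adjusted p below 0.05 for the difference.

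The genes that keep or change imprints were read from a list of 16. ASCs against ESCs had 6 of them higher and 4 lower, beside 26.4% and 23.9% of all tested genes, and ESC-ASCs against ESCs 5 higher and 6 lower, beside 30.6% and 29.6%. With so few genes, no excess over all tested genes is read from these counts. Zfp57, which recruits methylation to imprints, had means of 994 ± 347 (SD, n = 3) in ESCs, 640.5 ± 65.6 in ASCs, 518 ± 35.4 in ESC-ASCs and 117 ± 18.4 in EpiLCs, and it was lower in EpiLCs than in ESCs (log2 fold change -3.08 ± 0.26 SE, edgeR adjusted p = 9.03e-09). Dppa3, which protects methylation in the zygote, fell from 2439 ± 996 in ESCs to 252 ± 55.9 in ASCs and 275 ± 54.4 in ESC-ASCs, and was at 0.865 in AFSCs and 0.490 in EpiSCs. Dnmt3l, the cofactor of the new methyltransferases in the germ line, was highest in ESC-ASCs at 1043 ± 25.7 and in ASCs at 822 ± 193, against 151 ± 41.8 in ESCs and 2.48 ± 0.196 in AFSCs. Both groups in ABCL medium thus had the highest means of Dnmt3l, and the difference between ASCs and ESCs was 2.41 ± 0.19 (log2 fold change with SE, edgeR adjusted p = 1.28e-08). Dnmt3b, a methyltransferase of new sites, was highest in EpiLCs at 2660 ± 190 against 176 ± 16.8 in ESCs and 151 ± 16.2 in ASCs. Uhrf1 and Dnmt1, which copy methylation at replication, were not called between ASCs and ESCs. Zfp445, the second zinc finger keeper of imprints, was called in 0 of the 8 comparisons at group means of 75.5 to 154.

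A further 29 genes of imprinted regions were read in the same way, of which 22 were tested. In ESC-ASCs against ESCs 7 of them were higher (30.6% of all tested genes were) and 6 lower (29.6%), with a median log2 fold change of 0.20, and in ESC-ASCs against ASCs 4 were higher (23.0%) and 4 lower (27.7%). In ASCs against ESCs 6 were higher (26.4%) and 4 lower (23.9%), so that these counts are near or below the shares of all tested genes. In EpiSCs against ESCs 11 were higher (29.2%) and 7 lower (32.0%). Among the higher ones were Osbpl5, a neighbour of Phlda2, at 38.5 in EpiSCs against 1.48 in ESCs (log2 fold change 4.63 ± 0.24 SE, edgeR adjusted p = 4.44e-12), and the calcitonin receptor gene Calcr, at 16.1 in EpiSCs and at 0 counts in every ESC library. Zdbf2 was at 69.6 in ASCs and 14.3 in ESC-ASCs (log2 fold change -2.27 ± 0.21 SE, edgeR adjusted p = 6.29e-08). Kcnq1, the channel gene in which Kcnq1ot1 lies on the other strand, was at 4.17 in ESC-ASCs and 0.371 in ESCs (log2 fold change 3.19 ± 0.67 SE, edgeR adjusted p = 0.000576).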

How the data were processed

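The authors aligned paired-end RNA-seq reads to GRCm38 with TopHat2 and deposited raw read counts per gene from featureCounts v1.5.0-p1 (Ensembl release 86, minimum overlap 10, unstranded, multi-mapping and multi-overlap reads counted), 1 table for each of 18 libraries. Members were matched by symbol. The members and lists were chosen with earlier results of these data known. The 16901 genes that reached 10 counts in 3 or more libraries entered edgeR v4.0.16 (R v4.3.3), with TMM scaling and the quasi-likelihood test on 1 factor of 6 groups, and p-values were adjusted by Benjamini-Hochberg. Levels are counts divided by the scaled library size and exonic length. Values per library are given for members called with a log2 fold change beyond 2 in a comparison. Simulated counts for ASCs against ESCs (16901 genes) gave back 82% of changes of 1 and 100% of changes of 2 on the log2 scale, with 4.21% false calls. The changes were put only into genes with enough counts in the smallest library, at 1 fixed spread and with no outlying library. Recovery for members with few counts was thus not measured. DESeq2 v1.42.0, other scalings, filters and left-out libraries were alternatives. Counting intervals are exact at 95%. Same-numbered libraries of EpiLCs and ESCs deviated together from their group means (correlations of 0.462, 0.178 and 0.252), as did those of AFSCs and ESCs (0.511, 0.298 and 0.295). Libraries 2 and 3 did so across numbers too, at 0.268 and 0.233 for EpiLCs and ESCs and 0.215 and 0.222 for AFSCs and ESCs. A pairing by number beyond library 1 is thus not established, and replicate number served only as a block in an alternative fit. Promoter windows came from RefSeq. Library depth was 4961934 to 18071600 counts.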

Additional observations from a re-analysis of the deposited data

Results flagged for a closer look

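The change on entry into ABCL medium differed between the AFSC and ESC origins for 28 of 37 tested imprinted genes, by an interaction contrast in edgeR's quasi-likelihood fit at an adjusted p below 0.05, where 58.5% of all tested genes passed. Values are log2 fold changes of ASCs against AFSCs minus those of ESC-ASCs against ESCs, with 3 libraries a group. Such a value also depends on the levels in AFSCs and ESCs, and Gnas, Sgce and Phlda2 were not called between ESC-ASCs and ASCs. The differences of paternally expressed genes above 0 were 12.37 for Plagl1, 8.74 for Kcnq1ot1, 7.74 for Peg13, 6.56 for Nap1l5, 5.91 for Mest, 4.57 for Igf2 and 4.45 for Dio3. Smaller ones were 2.11 for Zrsr1, 1.80 for Usp29, 1.64 for Peg10, 1.39 for Peg12, 1.32 for Impact and 0.83 for Slc38a4. The maternally expressed H19 and Igf2r had 2.50 and 1.40, the first resting on 8 counts in 1 AFSC library. Below 0, the maternally expressed genes were Slc22a18 at -4.87, Phlda2 at -4.18, Grb10 at -3.52, Gnas at -3.43, Meg3 at -1.91, Rian at -1.90, Ascl2 at -1.83 and Commd1 at -1.55. The paternally expressed ones were Magel2 at -3.61, Sgce at -3.40, Dlk1 at -2.65, Snrpn at -2.26 and Peg3 at -0.77.

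Some of these differences rest on few counts or on 1 library. Leaving out each of the 12 libraries in turn, the call of H19 was lost in 9 cases (values of 1.84 to 7.35, adjusted p up to 0.123 in edgeR), that of Slc38a4 in 6 (0.49 to 1.04, up to 0.172) and that of Dlk1 in 3 (-4.70 to -1.95, up to 0.0798). ESCs held 6 counts of Dlk1, 5 of them in replicate 1, without which its difference was -4.70. Kcnq1ot1, with 3 counts in AFSCs, was at 7.81 without ESC replicate 1 and 9.69 without AFSC replicate 1. Magel2, with 3 counts in ESCs, was at -4.42 without ESC replicate 2. Nap1l5 and Peg13, each with 2 counts in ESC-ASCs, were at 9.53 and 8.34 without AFSC replicate 3, as Plagl1 was at 12.97. Without 1 ESC library, Slc22a18 was at -5.58 (replicate 3), Sgce at -4.20 (replicate 1) and Igf2 at 3.94 (replicate 1). With the libraries numbered 1 of ASCs, AFSCs, EpiLCs and ESCs left out, an alternative chosen after seeing the data, Igf2r was at 0.90 and lost its call (adjusted p = 0.0937 in edgeR).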

How the results depend on the processing

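Single-gene alternatives were computed for 109 fold changes between groups, picked because the main fit called them beyond 2 on the log2 scale. Of their 1519 values, 1514 kept direction and call, 5 lost the call (Rtl1 and Nap1l5, given above) and 0 reversed. Fits that gave no adjusted p were left out. Calls this large were likely to hold, and smaller calls and the differences between origins are not in this count. Total-count scaling moved the median of all genes by 0.202 for ASCs against ESCs, 0.143 for ASCs against EpiSCs and -0.143 for ESC-ASCs against ASCs. Counting only called changes beyond 2 (log2) with a level above 3 on the log2 scale gave, higher and lower, 8 and 1 for ASCs against ESCs, 9 and 2 for EpiLCs against ESCs, 11 and 3 for EpiSCs against ESCs, 7 and 6 for ASCs against AFSCs, 9 and 10 for ASCs against EpiSCs, 0 and 5 for ESC-ASCs against ASCs, and 6 and 5 for ESC-ASCs against ESCs. For AFSCs against EpiSCs it gave 2 higher, while Mest, Cdkn1c, Plagl1, Peg13 and Nnat were lower. The share of all tested genes was not counted by this rule, so no excess is read from these counts. Those beyond 1, higher and lower, numbered 5 and 6 for AFSCs against EpiSCs (12.6% and 8.19% of all tested genes), 2 and 13 for ESC-ASCs against ASCs (8.04% and 16.5%), and 7 and 10 for ESC-ASCs against ESCs (19.3% and 17.1%). These rules keep fewer genes by construction. With libraries numbered 1 of 4 groups left out, an alternative chosen after seeing the data, 13 genes were lower in AFSCs than in EpiSCs, and the cause was not tested. Leaving out 1 library gave 16 to 18 higher and 14 to 15 lower for ASCs against ESCs, 15 to 22 and 4 to 5 for EpiLCs against ESCs, 17 to 20 and 10 to 12 for EpiSCs against ESCs, 6 to 8 and 6 to 11 for AFSCs against EpiSCs, 14 to 17 and 12 to 15 for ASCs against AFSCs, 13 to 14 and 16 for ASCs against EpiSCs, 4 to 6 and 13 to 16 for ESC-ASCs against ASCs, 10 to 11 and 13 for ESC-ASCs against ESCs, and 13 to 16 and 12 to 14 for the difference between origins.

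In the 7 comparisons other than EpiLCs against ESCs, at least 1 same-numbered pair was not above 0.1 in the correlation of deviations from the group means (-0.239 to 0.511 over all 45 pairs). For EpiLCs against ESCs every same-numbered pair was above 0.1, but so were some differently numbered pairs, at 0.268 and 0.233. In a fit with a replicate block, the counts higher and lower were 17 and 15 for ASCs against ESCs, 21 and 5 for EpiLCs against ESCs, 21 and 11 for EpiSCs against ESCs, 9 and 7 for AFSCs against EpiSCs, 17 and 13 for ASCs against AFSCs, 14 and 16 for ASCs against EpiSCs, 8 and 19 for ESC-ASCs against ASCs, 11 and 13 for ESC-ASCs against ESCs, and 15 and 14 for the difference between origins. For EpiLCs against ESCs the block changed no call beyond the 3 given above. Depth limits genes with few counts, such as Kcnq1ot1, Peg13, Nap1l5, Dlk1 and Magel2, whose fold changes rest on groups with at most 10 counts in all.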
